A study of Mus musculus with 16 samples.

Results

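Tumor CD8 cells with an interferon response were the subject, in mice that carried MC38 tumors and either had or lacked the gene Aire. They were chosen by raw counts of unique molecular identifiers (UMIs, each marking 1 captured RNA molecule) in the 4 libraries of CD8+ cells sorted from tumors. A cell needed at least 1 UMI of Cd8a or Cd8b1, at least 1 UMI of Cd3e, Cd3d or Cd3g, and at least 10 UMIs of Ifit1, Ifit3, Rsad2 and Isg15 together. It also needed fewer than 20 UMIs of Gzmc, Gzmd, Gzme and Gzmf, fewer than 3 UMIs of the cell-cycle genes Mki67, Top2a, Birc5, Ube2c and Ccna2, at most 1 UMI of C1qa, C1qb and C1qc, and no UMI of Siglech. The rule chose 1464 of 8984 barcodes, and 5534 barcodes met every criterion other than the interferon one. The 1464 cells are called members, and the other 4070 cells, which had 0 to 9 UMIs of the 4 interferon genes, are called reference cells. The granzyme genes and the cell-cycle genes keep highly differentiated and dividing cells out, C1q marks macrophages, and Siglech marks plasmacytoid dendritic cells.

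Interferons are secreted proteins that tell cells of an infection, of damaged DNA or of activated lymphocytes nearby. Type I interferons bind the receptor made of Ifnar1 and Ifnar2, and interferon gamma binds the one made of Ifngr1 and Ifngr2. Both receptors act through Janus kinases, which switch on transcription factors that enter the nucleus. Many target genes answer to both signals, so the 4 genes of the rule do not tell which interferon a cell met. Ifit1 and Ifit3 bind foreign RNA or help to do so, Rsad2 makes a nucleotide that stops RNA synthesis, and Isg15 is a small protein that is joined to other proteins.

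Aire lets the thymus show proteins of other tissues to developing T cells, so that self-reactive T cells are removed. The series asked how a lack of Aire and blockade of the inhibitory receptor PD1 act together on immunity against a tumor. Female C57BL/6 mice, Aire+/+ or Aire-/- and 8 weeks old, carried MC38, a mouse colon adenocarcinoma line, and received anti-PD1 or isotype antibody, 5 mg/kg per dose, first on day 0 and then on days 3, 7, 10 and, last, 14. On day 19 tumors and spleens were taken and pooled from 4 to 6 mice per condition. A library was made for each combination of condition, tissue and sort (CD45+ or CD8+), which came to 16 libraries with 37609 barcodes. Each condition had 1 library per tissue and sort, so no difference between conditions has a replicate check, and every interval given is a 95% interval that covers counting error only.

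The tumor CD8+ libraries held 2688 barcodes and 35180747 UMIs in Aire+/+ isotype mice, 2222 barcodes and 27057166 UMIs in Aire+/+ anti-PD1 mice, 1860 barcodes and 22421677 UMIs in Aire-/- isotype mice, and 2214 barcodes and 23278746 UMIs in Aire-/- anti-PD1 mice. Wherever 4 values stand together, the order is Aire+/+ isotype, then Aire+/+ anti-PD1, then Aire-/- isotype, then Aire-/- anti-PD1. Members had a median of 8220, 8002, 8110 and 6703 UMIs, and reference cells had a median of 8793, 8760, 8536 and 7581 UMIs. Members were the shallower cells in each of the 4 libraries, and those of the Aire-/- anti-PD1 library were the shallowest. Aire itself had 6, 3, 1 and 0 UMIs over all cells of these libraries, which is too few to check the genotype. Between 2 and 8 barcodes were shared by each of the 6 pairs of tumor CD8+ libraries, and 10 members had a barcode that also occurred in another of them.

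Levels are given as CPM, the UMIs of a gene for each 1000000 UMIs of all genes in a group of cells. Ifit1 was at 533, 576, 729 and 868 CPM in members and at 26.4, 25.2, 30.2 and 36.4 CPM in reference cells. Ifit3 was at 908, 907, 1017 and 1112 CPM in members and at 41.4, 39.3, 56.6 and 54.6 CPM in reference cells. Rsad2 was at 231, 286, 311 and 398 CPM in members and at 9.39, 12.02, 9.32 and 14.3 CPM in reference cells. Isg15 was at 1618, 1684, 2021 and 2209.9 CPM in members and at 104, 132, 143 and 144 CPM in reference cells. All 4 genes define the members, so these values describe the choice, and each was lowest in members of an Aire+/+ library. The 4 genes together made up 3291, 3454, 4077 and 4588 CPM of the members' RNA, lowest in Aire+/+ isotype and highest in Aire-/- anti-PD1 mice. They made up 181, 209, 239.6 and 249 CPM of the reference cells' RNA, in the same order of libraries. The threshold is a fixed number of UMIs, so a shallower cell needs a higher CPM to reach it. Members had a median of 8220 UMIs in Aire+/+ isotype and 6703 UMIs in Aire-/- anti-PD1 mice. The part of depth in the order among members was not tested. Members and reference cells together, a group set without the interferon criterion, had 807, 1014, 1334 and 1494 CPM, in the same order.

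The interferon response was a continuous range with no gap at the threshold. Just above it, 249 members had 10 to 12 UMIs of the 4 genes, and just below it, 199 reference cells had 8 or 9. Of the members, 585 had 10 to 19 UMIs, 582 had 20 to 49 and 297 had 50 or more. The median sum of a member was 22 UMIs in both Aire+/+ libraries and 25 UMIs in both Aire-/- libraries. All 4 genes were found in 853 members, whereas 37 members reached the threshold by Isg15 alone.

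The interferon sum was reached by 2302 barcodes of the 4 libraries, of which 110 lacked UMIs of Cd8a and Cd8b1 or of the Cd3 genes. Of the other 2192, the granzyme criterion removed 445, the cell-cycle criterion 355, the C1q criterion 94 and the Siglech criterion 9, and some met more than 1 of these. Cells with high Gzmc to Gzmf, cycling cells and cells with Tcf7 and Pdcd1 thus overlap with the interferon response as a state, and 109 members had UMIs of both Tcf7 and Pdcd1.

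Cd8a and the Cd3 genes stood at like levels in members and reference cells. Cd8a, the alpha chain of the CD8 coreceptor, was at 1251, 1409, 1462 and 1538 CPM in members and at 1391, 1518, 1624 and 1511 CPM in reference cells. Cd8b1, its beta chain, was at 1575, 1755, 1789.8 and 1959 CPM in members and at 1405, 1546, 1605 and 1740.5 CPM in reference cells. Cd3e, a signalling chain of the T-cell receptor, was at 1203, 1541, 1432 and 1491 CPM in members and at 1337, 1539, 1524 and 1506 CPM in reference cells. Each of the 3 genes stayed well short of a 2-fold difference in each library, and Cd8b1 was slightly higher in members of all 4.

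Markers of most other cell types were scarce in members. The 5 neutrophil genes and the 3 erythroid genes had 0 UMIs in members of all 4 libraries. The same held for Ms4a1 of B cells, Ncr1 and Klra8 of natural killer cells, Xcr1, Clec9a and Cd209a of dendritic cells, Chil3 and Thbs1 of monocytes, Krt8 and Col3a1 of tumor or stroma, Fcer1a of mast cells, Klk1 of plasmacytoid dendritic cells and Sox13 of gamma-delta T cells. The 9 macrophage genes summed to 29.7, 27.4, 33.4 and 34.6 CPM in members and 26.2, 34.01, 34.8 and 29.98 CPM in reference cells, and the lysosomal gene Cd68 was the most abundant of them. The rule limits C1qa, C1qb and C1qc in both groups, and the other 6 macrophage genes summed to 23.4, 21.2, 22.4 and 24.5 CPM in members and 22.2, 25.9, 25.4 and 20.995 CPM in reference cells. Macrophage genes were thus at like levels in both groups, with or without C1q. B-cell genes, led by Cd79b, summed to 8.02, 5.61, 4.47 and 4.18 CPM in members and 4.13, 3.29, 2.74 and 5.95 CPM in reference cells. They were higher in members of 3 libraries, from 23, 18, 13 and 15 UMIs in members. Genes of tumor or stroma, led by Epcam, summed to 3.49, 0.934, 2.41 and 3.35 CPM in members and 2.28, 2.67, 3.15 and 2.25 CPM in reference cells. Mast-cell genes, led by Mcpt8, summed to 0, 0, 0.344 and 0.558 CPM in members and 0.0878, 0, 0.137 and 0 CPM in reference cells.

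Other marker lists hold genes that activated CD8 cells use as well, and they were more abundant. The natural killer list, led by the granule protease Gzma, stood at 962, 975, 1818 and 1475 CPM in members and 488, 556, 653 and 1259.7 CPM in reference cells. The monocyte list, led by Ly6c2, a surface protein of activated CD8 cells, stood at 3430.2, 3898, 4134 and 3678 CPM in members and 1521, 1986, 2041 and 2054 CPM in reference cells. The plasmacytoid list, led by Bst2, an interferon target that tethers particles to the cell surface, stood at 830.0, 971, 1009 and 1068 CPM in members and 262, 345, 322 and 323 CPM in reference cells. All 3 lists were higher in members of each library, and their part in the differences between members and reference cells was not tested. The list for CD4 and regulatory T cells, led by the inhibitory receptor Ctla4, stood at 590.3, 812, 603 and 698 CPM in members and 686, 884, 766 and 782 CPM in reference cells, and was lower in members of each library.

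The dendritic list stood at 0.349, 0.311, 39.5 and 1.12 CPM in members and at 13.5, 9.45, 0.686 and 0.786 CPM in reference cells, and among members it was high in the Aire-/- isotype library only. In that library 1 member held 111 of 111 UMIs of Fscn1, an actin-bundling protein of mature dendritic cells, together with 27 UMIs of H2-Aa, 69 of Ccr7, 4 of the CD8 genes and 1 of the Cd3 genes. A member of the Aire+/+ isotype library held 202 of 205 UMIs of H2-Aa, 135 of 152 of H2-Ab1 and 166 of 175 of H2-Eb1, which form MHC class II, with 3 UMIs of the CD8 genes and 6 of the Cd3 genes. No barcode was left out as a mixture of cells. Both barcodes passed every criterion, and both decide the values of these genes between conditions.

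Members made up 20.9% (18.8 to 23.01) of the cells that met the other criteria in Aire+/+ isotype tumors (313 of 1500, exact Clopper-Pearson interval). They made up 25.9% (23.6 to 28.3) in Aire+/+ anti-PD1 tumors (361 of 1393), 29.4% (26.7 to 32.1) in Aire-/- isotype tumors (331 of 1127) and 30.3% (28.01 to 32.7) in Aire-/- anti-PD1 tumors (459 of 1514). The share was lowest in Aire+/+ isotype tumors and highest in both Aire-/- libraries. Under isotype the Aire-/- share was 1.41 (1.20 to 1.65) times the Aire+/+ share, and under anti-PD1 it was 1.17 (1.02 to 1.35) times. Anti-PD1 over isotype gave a ratio of 1.24 (1.06 to 1.45) in Aire+/+ mice and 1.03 (0.894 to 1.19) in Aire-/- mice. The interval of the last ratio holds 1, so a difference by antibody was not detectable at this depth in Aire-/- tumors. These ratios share libraries with each other, and whether they differ was not tested.

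A fixed number of UMIs finds fewer interferon transcripts in a shallow cell, so each cell was also thinned to 5000 UMIs and the rule applied again. The shares were then 11.8%, 16.5%, 19.1% and 19.6%, from 190 of 1606, 242 of 1467, 225 of 1176 and 263 of 1340 cells, beside 20.9%, 25.9%, 29.4% and 30.3% without thinning. Thinning also removes granzyme and cell-cycle UMIs, so other cells met those criteria. The order of the libraries stayed the same. The thinned Aire-/- over Aire+/+ ratio was 1.62 (1.33 to 1.97) with isotype antibody, whereas anti-PD1 gave 1.19 (0.995 to 1.42), an interval that holds 1. Thinned anti-PD1 over isotype was 1.39 (1.15 to 1.70) in Aire+/+ and 1.03 (0.855 to 1.23) in Aire-/- mice. Too shallow for this were 151, 94, 117 and 316 of the cells meeting the other criteria, among them 44, 30, 37 and 118 members.

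The CD45+ libraries of the same tumors hold CD8 cells that went through another sort. By the same rule, members there were 25.7% (17.9 to 34.7) (29 of 113), 32.5% (25.4 to 40.3) (53 of 163), 31.7% (24.3 to 39.96) (46 of 145) and 33.1% (29.1 to 37.2) (178 of 538) of the cells meeting the other criteria. Thinned, they were highest in the Aire+/+ anti-PD1 library and stood at 22.1%, 25.6%, 20.9% and 21.4%, with 19, 14, 15 and 99 cells too shallow. The Aire-/- over Aire+/+ ratio was 1.24 (0.760 to 2.04) with isotype antibody, and with anti-PD1 it was 1.02 (0.745 to 1.41). Anti-PD1 over isotype gave 1.27 (0.791 to 2.07) in Aire+/+ and 1.04 (0.750 to 1.48) in Aire-/- tumors. Each of these 4 intervals holds 1, so no difference between conditions was detectable in this sort. Thinned, the Aire-/- over Aire+/+ ratio fell below 1 and was 0.948 (0.527 to 1.73) with isotype antibody, whereas anti-PD1 gave 0.835 (0.574 to 1.24), and both intervals hold 1 as well.

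In the spleen, where CD8 cells were sorted from the same mice, the state was rare. Members were 1.29% (0.908 to 1.79) (36 of 2783), 1.18% (0.822 to 1.65) (34 of 2870), 1.42% (0.971 to 1.99) (32 of 2258) and 1.15% (0.772 to 1.65) (29 of 2519) of the cells meeting the other criteria. Thinned, they were 1.03%, 1.03%, 1.16% and 0.708%, with 554, 730, 535 and 828 cells too shallow. Without thinning, each spleen share was under 2%, and each tumor share of the same sort was above 20%. The spleen CD45+ libraries held 1, 3, 1 and 1 members among 153, 174, 162 and 213 such cells.

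**Figure D1:**
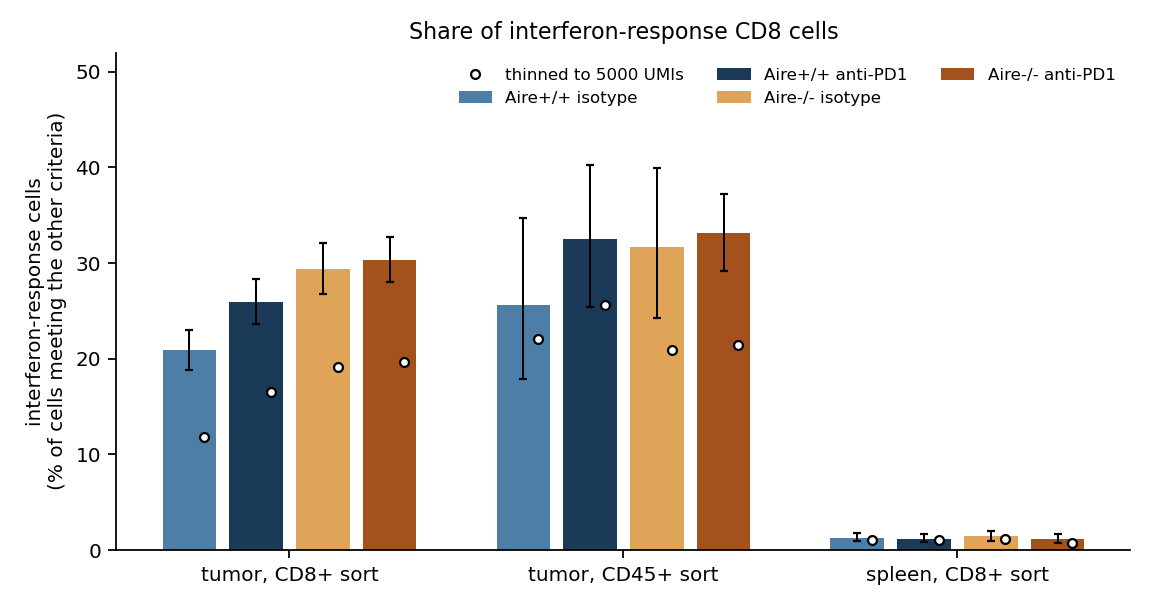
Bars give the percentage of cells meeting the other criteria that were members, by sort and condition, with exact 95% intervals, and open circles give the percentage after thinning to 5000 UMIs. Tumor shares of both sorts ran from 20.9% to 33.1%, and spleen shares of the CD8+ sort from 1.15% to 1.42%, before thinning.

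Other states of tumor CD8 cells reached the interferon sum too. These states were set on all UMIs of a cell, before any thinning. The sum was reached by 17.3%, 22.5%, 26.3% and 23.4% of cells with high Gzmc to Gzmf, by 17.1%, 27.4%, 26.996% and 23.02% of cycling cells and by 26.6%, 35.2%, 33.3% and 29.3% of cells with Tcf7 and Pdcd1. Cells with high Gzmc to Gzmf and cycling cells held more RNA, with a median of 17009.5, 15619, 14675 and 15445 UMIs in the former. Thinned to 5000 UMIs, the shares were 6.04%, 9.52%, 11.6% and 12.6% for high Gzmc to Gzmf, 4.55%, 11.54%, 8.91% and 12.01% for cycling cells, and 14.5%, 19.8%, 18.5% and 26.7% for Tcf7 and Pdcd1. Among members and reference cells together, thinned in the same way, the shares were 12.9%, 17.2%, 20.3% and 20.5%. The 4 interferon genes stood at 365, 529.6, 678 and 685 CPM in cells with high Gzmc to Gzmf, 339, 522, 568 and 706 CPM in cycling cells, 705, 1139, 738 and 1446 CPM in cells with Tcf7 and Pdcd1, and 807, 1014, 1334 and 1494 CPM in members and reference cells together. At equal depth, cells with high Gzmc to Gzmf and cycling cells had smaller shares than members and reference cells together in each of the 4 libraries. For cells with Tcf7 and Pdcd1, the thinned share was lower than theirs in the Aire-/- isotype library and higher in the other 3. That group also holds cells with high Gzmc to Gzmf and cycling cells. Within members and reference cells alone, the thinned share was 21.7%, 22.9%, 23.6% and 30.9% of the 83, 70, 55 and 68 cells with Tcf7 and Pdcd1 and 12.3%, 16.8%, 20.1% and 19.9% of the others. It was higher with Tcf7 and Pdcd1 in each of the 4 libraries, and the intervals of both groups overlap in each. Without thinning, the 4 interferon genes stood at 998, 1464, 1028 and 1873 CPM in these cells with Tcf7 and Pdcd1. The others had 792, 987, 1356 and 1470 CPM, so the level was lower with Tcf7 and Pdcd1 in the Aire-/- isotype library.

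No member held a UMI of a type I interferon gene. The 8 genes with a measurement, Ifnb1 and 7 of the Ifna family, had 0 UMIs in 3 of the tumor CD8+ libraries. In the Aire-/- anti-PD1 library 117 UMIs of 7 of them lay in 1 barcode, which had Siglech, lacked CD8 or Cd3 UMIs and was not a member. In the CD45+ libraries of the tumors these genes had 3, 29, 15 and 14 UMIs in 1, 2, 5 and 2 barcodes, none of them a member. Type I interferon transcripts were thus found in 10 CD45+ barcodes of the 4 conditions and in 1 barcode of the CD8+ sort.

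Ifng, which encodes interferon gamma, was at 543, 586, 605 and 382 CPM in members and at 989, 543, 849.8 and 787 CPM in reference cells. Members had less than reference cells in 3 libraries and slightly more in the Aire+/+ anti-PD1 library (log2 ratios -0.87, 0.11, -0.49 and -1.04). The interferon-gamma gene was thus found in members and reference cells alike.

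Between members and reference cells, 8765 genes had at least 200 UMIs and were compared. At least 2-fold higher in members in each of the 4 libraries were 141 genes (1.61%), 137 of them outside the 4 genes of the rule. At least 2-fold lower in each were 12 genes (0.137%). Of the 141, 41 were at least 4-fold and 13 at least 8-fold higher in all 4 libraries, and for 106 the lower bound of the interval was also above 2-fold in all 4. The median log2 ratio over all genes was -0.08. Since the members were chosen by interferon genes, the gene lists that follow describe what went along with that choice and are given with counts and medians, without a test.

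The receptors and kinases of the interferon pathways were mostly at like levels in both groups of cells. The median log2 ratio of the 7 genes was 0.09, and none was 2-fold higher in all 4 libraries. Ifnar1 was at 107, 128, 122 and 163 CPM in members and at 98.4, 130.2, 118 and 144 CPM in reference cells. Ifngr1 was at 729, 805, 838 and 890.3 CPM in members and at 606, 746, 724 and 803 CPM in reference cells. Jak1, a kinase that both receptors use, was at 279, 294, 299 and 329 CPM in members and at 256, 273, 292 and 311 CPM in reference cells. Ifnar2 was the highest of the list, with log2 ratios of 0.48, 0.54, 0.59 and 0.28, and Ifngr2 had log2 ratios of -0.07, 0.29, 0.53 and -0.27. Ifnar1 and Ifngr1 were thus at about the same level in members as in the other cells, and Ifnar2 was higher in members of each library by less than 2-fold, while Ifngr2 had no common direction.

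Of 14 transcription factors and feedback genes, 6 were at least 2-fold higher in all 4 libraries, and the median log2 ratio was 0.80. Stat2, a transcription factor of the type I pathway, was at 91.8, 84.1, 104 and 115 CPM in members and at 20.5, 18.8, 23.9 and 20.7 CPM in reference cells. Irf7, a factor that amplifies type I interferon responses, was at 693, 775, 740.3 and 782 CPM in members and at 155, 207, 176 and 185 CPM in reference cells. Both were higher in members of each library, and Stat2 was highest in those of both Aire-/- libraries. Usp18, which removes Isg15 from proteins and blocks the receptor, was at 290.3, 261, 312 and 256 CPM in members and at 31.6, 35.03, 35.5 and 26.4 CPM in reference cells. Usp18 had the largest ratio of this list, and Irf8, a factor of myeloid and activated T cells, the lowest, with log2 ratios of -0.78, -0.42, -0.38 and -0.26. Socs1, a feedback inhibitor of the kinases, had log2 ratios of 0.66, 0.64, 0.68 and 0.61, which is higher in members of each library but short of 2-fold.

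Effector genes of the type I response were the longest list, and 36 of the 45 tested were at least 2-fold higher in all 4 libraries. The median log2 ratio was 1.87, and all 45 were above 0 in all 4 libraries, as were 1207 of all 8765 genes compared. Ifit2, of the same RNA-binding family as Ifit1, was at 175, 141, 157 and 168 CPM in members and at 10.7, 12.02, 11.7 and 11.6 CPM in reference cells. Mx1, a GTPase that traps viral particles in the nucleus, was at 243, 325, 243 and 316 CPM in members and at 15.98, 21.99, 16.7 and 17.6 CPM in reference cells. Mx2, its cytoplasmic relative, was at 57.2, 66.3, 60.2 and 62.2 CPM in members and at 2.81, 2.57, 4.25 and 2.47 CPM in reference cells. Ifit2, Mx1 and Mx2 were each at least 8-fold higher in members of each library. Cmpk2, the nucleotide kinase encoded next to Rsad2, was at 105, 106, 131 and 165 CPM in members and at 7.11, 8.32, 9.87 and 8.42 CPM in reference cells. Oasl2, a relative of the enzymes that activate RNase L, was at 83.4, 67.9, 97.3 and 80.9 CPM in members and at 10.5, 7.09, 11.52 and 8.53 CPM in reference cells. Bst2 was at 829.6, 970.0, 1009 and 1068 CPM in members and at 261, 345, 321 and 322 CPM in reference cells. Bst2 and Oasl2 were more than 2-fold higher in each of the 4 libraries as well. The smallest ratios were those of Shisa5, an endoplasmic reticulum protein, with log2 ratios of 0.60, 0.61, 0.57 and 0.62, and of Ly6e, a surface protein, with log2 ratios of 0.65, 0.64, 0.59 and 0.63. Both were abundant in reference cells too, where Ly6e stood at 1080.4, 1109, 1128 and 1099.9 CPM. The values of Ifit3b, close in sequence to Ifit3, and of the Oas1, Phf11 and Slfn genes are uncertain, since UMIs can be assigned to the wrong copy or lost.

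Most sensors of nucleic acids were higher in members. Of 8 tested, 5 were at least 2-fold higher in all 4 libraries, namely Ddx58, Dhx58, Ifih1, Zbp1 and Ddx60, which detect RNA or act with such detectors. Ifih1 was at 139.9, 147, 127 and 136 CPM in members and at 19.3, 24.5, 18.8 and 19.5 CPM in reference cells. Zbp1 was at 484, 486, 553 and 547 CPM in members and at 109, 124, 137 and 151 CPM in reference cells. Both were higher in members of each library. Mb21d1, which encodes the DNA sensor cGAS, had log2 ratios of 1.55, 0.84, 0.88 and 0.90 and was higher in each as well. Tmem173, which encodes STING, and Mavs, the adaptor of RNA sensors, had log2 ratios of 0.28, 0.08, 0.24 and -0.02 and of 0.05, 0.63, -0.12 and -0.04. Tmem173 thus stayed near the level of the reference cells, as did Mavs outside the Aire+/+ anti-PD1 library, while the 6 others of the list were higher in all 4 libraries.

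Genes that interferon gamma typically induces most strongly, the guanylate-binding proteins, immunity-related GTPases and related genes, were higher. All 16 tested were at least 2-fold higher in all 4 libraries, with a median log2 ratio of 1.91. Gbp2, which coats vacuoles that hold parasites, was at 235, 203, 281 and 293 CPM in members and at 36.96, 38.2, 54.03 and 63.5 CPM in reference cells. Iigp1, which acts on the same vacuoles, was at 54.4, 37.4, 52.3 and 88.7 CPM in members and at 6.496, 2.57, 8.09 and 15.7 CPM in reference cells. Cd274, which encodes the PD1 ligand PD-L1, was at 108, 102, 124 and 139 CPM in members and at 36.3, 38.01, 47.9 and 48.7 CPM in reference cells. Cd274 was higher in members of each library and was highest in those of the Aire-/- anti-PD1 library. Igtp was at 271, 243, 327 and 364 CPM in members and at 61.7, 55.9, 99.1 and 110.5 CPM in reference cells. Igtp, another immunity-related GTPase, was higher in both Aire-/- libraries than in both Aire+/+ libraries, in members and in reference cells. Tgtp1 and Tgtp2 are near-identical copies, and the Gbp genes are close relatives, so how their UMIs divide is uncertain. Ciita, the activator of MHC class II, had too few UMIs to be tested.

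MHC class I and immunoproteasome genes were higher, most by less than 2-fold. The 17 genes had a median log2 ratio of 0.51, all 17 were above 0 in all 4 libraries, and none was 2-fold higher in all 4. Of all 8765 genes compared, 1207 were above 0 in all 4 libraries. Psmb10, a subunit of the immunoproteasome, was at 336, 273, 321 and 321 CPM in members and at 157, 138, 156 and 165 CPM in reference cells. Tap1, which carries peptides to MHC class I, was at 352, 404, 367 and 385 CPM in members and at 225, 253, 236 and 250.1 CPM in reference cells. B2m, the light chain of MHC class I, was at 3150.4, 3366, 3487 and 3449.9 CPM in members and at 3001, 3002, 2983 and 2999.7 CPM in reference cells. Psmb10 was at the top of the list and B2m at the bottom, and H2-Q6 had 0 UMIs in all 16 libraries.

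Cxcl10 had the largest ratio of the chemokine list. Cxcl10, a chemokine that draws Cxcr3-bearing T cells, was at 527, 526, 548 and 1087 CPM in members and at 14.9, 13.2, 30.9 and 54.6 CPM in reference cells. Members of the Aire-/- anti-PD1 library had the highest level, and the other 3 libraries were close to each other. Cxcr3 was at 114, 91.9, 99.03 and 125 CPM in members and at 46.4, 52.5, 60.9 and 84.7 CPM in reference cells. Cxcr3 was higher in members of each library, and past 2-fold in the Aire+/+ isotype library only. Cxcl9 and Cxcl11 had too few UMIs to be tested.

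Xcl1 moved the other way and was at least 2-fold lower in all 4 libraries. Xcl1, a chemokine for cross-presenting dendritic cells, was at 188, 182, 216 and 95.9 CPM in members and at 735, 477, 673 and 416 CPM in reference cells. Ccl1, a chemokine for Ccr8-bearing cells, was at 245, 237, 355 and 149 CPM in members and at 747, 514, 708 and 402 CPM in reference cells. Ccl1 was lower in members of each library. In Aire+/+ isotype members it stood at 564 CPM with interferon sums of 10 to 19, at 40.3 CPM with 20 to 49 and at 7.69 CPM with 50 or more. In Aire-/- isotype members 274 of 1033 UMIs of Ccl1 lay in 1 cell. Ccr7, the homing receptor for lymph nodes, was at 283, 661, 466 and 246 CPM in members and at 737, 764, 775 and 519.8 CPM in reference cells. Ccr7 was lower in members of each library too, and least so in the Aire+/+ anti-PD1 library. The list of 13 chemokine genes had a median log2 ratio of -0.09, with Cxcl10 the 1 gene at least 2-fold higher and Xcl1 the 1 gene at least 2-fold lower in all 4.

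Cytotoxic genes and cytokines had a median log2 ratio of -0.04 over 14 genes. Gzmb, the main granzyme of killer cells, was at 3235, 3554, 5342 and 4548 CPM in members and at 1644, 2048, 1857 and 2597 CPM in reference cells. Gzmk, a granzyme of early effector and memory cells, was at 149, 180.0, 188 and 258 CPM in members and at 63.998, 82.3, 72.1 and 118 CPM in reference cells. Both granzymes were higher in members of each library, Gzmk by at least 2-fold in all 4 and Gzmb in the Aire-/- isotype library only. Prf1, the pore-forming protein, was at 220.1, 252, 339 and 406 CPM in members and at 447, 397, 441 and 491 CPM in reference cells. Prf1 was lower in members of each library. Csf2, the growth factor GM-CSF, was at 8.02, 15.9, 5.16 and 7.25 CPM in members and at 87.4, 75.3, 50.5 and 34.6 CPM in reference cells. Csf2 was at least 2-fold lower in members of each library. Il2, the T-cell growth factor, was at 0.698, 51.7, 1.03 and 1.39 CPM in members and at 21.6, 82.3, 6.86 and 16.95 CPM in reference cells, but 161 of the 166 UMIs in members of the Aire+/+ anti-PD1 library lay in 1 cell. Csf2 was thus lower in members of each library, while Gzmb and Gzmk were higher. Il2 was lower in members of each library as well, but from few UMIs, such as 2 in Aire+/+ isotype and 5 in Aire-/- anti-PD1 members.

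Inhibitory receptors had a median log2 ratio of -0.16 over 10 genes, and costimulatory receptors one of -0.26 over 7 genes. Pdcd1, which encodes PD1, was at 542, 937, 707 and 823 CPM in members and at 637, 997, 782 and 764 CPM in reference cells. Pdcd1 differed little between members and reference cells, and both were highest in the Aire+/+ anti-PD1 library and lowest in the Aire+/+ isotype library. Lag3, an inhibitory receptor for MHC class II, was at 431, 817, 729 and 696 CPM in members and at 910.2, 1125, 1063 and 933 CPM in reference cells. Tnfrsf4, which encodes OX40, was at 156, 239, 175 and 137 CPM in members and at 383, 421, 346 and 281 CPM in reference cells. Tnfrsf9, which encodes 4-1BB, was at 626, 857, 906 and 738 CPM in members and at 1272, 1321, 1344 and 1069 CPM in reference cells. All of Lag3, Tnfrsf4 and Tnfrsf9 were lower in members of each library.

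The 12 genes of naive and stem-like cells had a median log2 ratio of 0.12. Tcf7, the factor of stem-like T cells, was at 48.8, 27.4, 47.5 and 29.8 CPM in members and at 38.98, 25.3, 31.8 and 34.02 CPM in reference cells. Tcf7 was slightly higher in members of 3 libraries and lower in those of the Aire-/- anti-PD1 library. With interferon sums of 10 to 19, 20 to 49 and 50 or more, Tcf7 was at 71.0, 35.3 and 30.8 CPM in Aire+/+ isotype members. The Aire+/+ anti-PD1 members had 30.2, 24.5 and 26.8 CPM. In Aire+/+ isotype tumors, only the members nearest the threshold were thus above the reference level. Of the 5 residency genes tested, Cd69 was at least 2-fold higher in all 4 libraries. Cd69, which keeps T cells from leaving tissue, was at 1491, 1242, 1001 and 1533 CPM in members and at 574, 616, 496 and 649 CPM in reference cells. The 13 immediate early genes had a median log2 ratio of -0.06 and the 8 housekeeping genes one of -0.08. Nr4a1, which T-cell receptor signals induce, had log2 ratios of -0.09, -0.06, -0.05 and -0.02, and Actb, a housekeeping gene, 0.27, 0.05, 0.16 and -0.05. Cd69 was thus higher in members of each library without a like difference in Nr4a1.

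**Figure D2:**
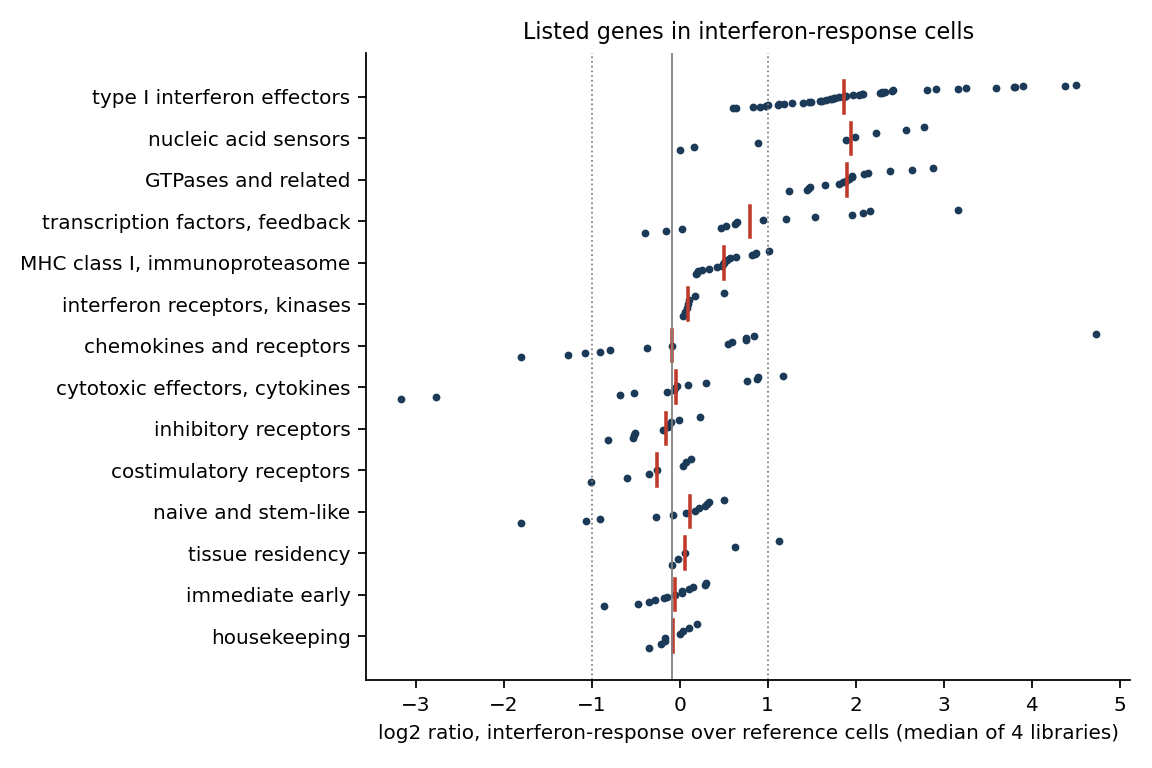
Each point is a listed gene, placed by its median over the 4 libraries of the log2 ratio of members over reference cells, red bars mark list medians, the grey line the median of all genes (-0.08), and dotted lines 2-fold. Medians of the 14 lists drawn, which leave out the interferon ligands, the genes of the rule and the markers of other cell types, ran from -0.26 for costimulatory receptors to 1.94 for nucleic acid sensors.

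Of the 141 genes higher in members, 67 were on a list for interferon, sensors or MHC class I, and 71 were on no list. The 67 include the 4 genes of the rule, and none of them is from the MHC class I list. Among the 71, the 15 genes whose smallest ratio over the 4 libraries was largest were Ifi204, Sdc3, Phf11a, AW011738, Gm12185, Gm12250, Phf11c, Pydc3, BC147527, BC094916, Trafd1, Pydc4, Gm12253, Pyhin1 and Tnp2. Ifi204, a DNA-binding protein of the same cluster as Ifi203, was at 56.9, 65.1, 58.5 and 69.2 CPM in members and at 2.46, 4.93, 5.07 and 4.83 CPM in reference cells. Sdc3, a heparan sulfate proteoglycan, was at 15.7, 12.8, 22.4 and 17.3 CPM in members and at 1.32, 1.75, 2.19 and 2.25 CPM in reference cells. Trafd1, a zinc-finger protein that restrains innate signals, was at 176, 185, 181 and 208 CPM in members and at 38.4, 44.7, 42.4 and 48.1 CPM in reference cells. All 3 genes were more than 3-fold higher in members of each library. Phf11a, Phf11c, Pydc3, Pydc4 and BC094916 belong to families of close copies, so the level of each is uncertain.

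The 12 genes lower in members of all 4 libraries were Ptprs, Eno3, Smyd5, Xcl1, Cd83, Tspan2, Chit1, Spin4, Bace2, Csf2, Cd81 and Cd70. Cd83, a surface protein of activated lymphocytes and dendritic cells, was at 19.5, 23.04, 22.01 and 10.6 CPM in members and at 68.9, 96.5, 51.1 and 47.7 CPM in reference cells. Ptprs, a receptor phosphatase, was at 15.002, 21.8, 17.2 and 12.3 CPM in members and at 44.2, 51.2, 41.6 and 32.1 CPM in reference cells. Most of the others had few UMIs, such as Chit1, a chitin-splitting enzyme, at 7.55, 6.47, 3.70 and 5.28 CPM in reference cells. Cd83 and Ptprs were more than 2-fold lower in members of each library.

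Genes were also followed over ranges of the interferon sum, with 0, 1 to 4, 5 to 9, 10 to 19, 20 to 49 and 50 or more UMIs of the 4 genes. In Aire+/+ isotype cells, Mx1 was at 5.99, 15.9, 49.1, 106, 233 and 573 CPM in these ranges, and in Aire-/- anti-PD1 cells it was at 11.1, 16.3, 34.6, 84.1, 223 and 789 CPM. Cxcl10 was at 9.29, 16.7, 27.3, 112, 361 and 1829 CPM in Aire+/+ isotype cells and at 31.1, 52.8, 108, 276, 718 and 2815 CPM in Aire-/- anti-PD1 cells. Mx1 rose at each step in both libraries, and Cxcl10 was higher in every range in the Aire-/- anti-PD1 library. Xcl1 was at 945, 615, 454, 231, 185 and 100.003 CPM in Aire+/+ isotype cells and at 589.5, 312, 346, 90.6, 83.01 and 125 CPM in Aire-/- anti-PD1 cells. Gzmb was at 1232, 1775, 2554, 2534, 3494 and 4198 CPM and at 1808, 2861, 3488, 4575, 3782 and 5763 CPM in the same libraries. In both libraries Xcl1 was highest, and Gzmb lowest, in cells without a UMI of the 4 genes. Pdcd1 was at 668, 649, 496, 526, 548 and 563 CPM in Aire+/+ isotype cells and at 714, 829, 685, 794, 851 and 816 CPM in Aire-/- anti-PD1 cells, with no steady rise or fall.

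**Figure D3:**
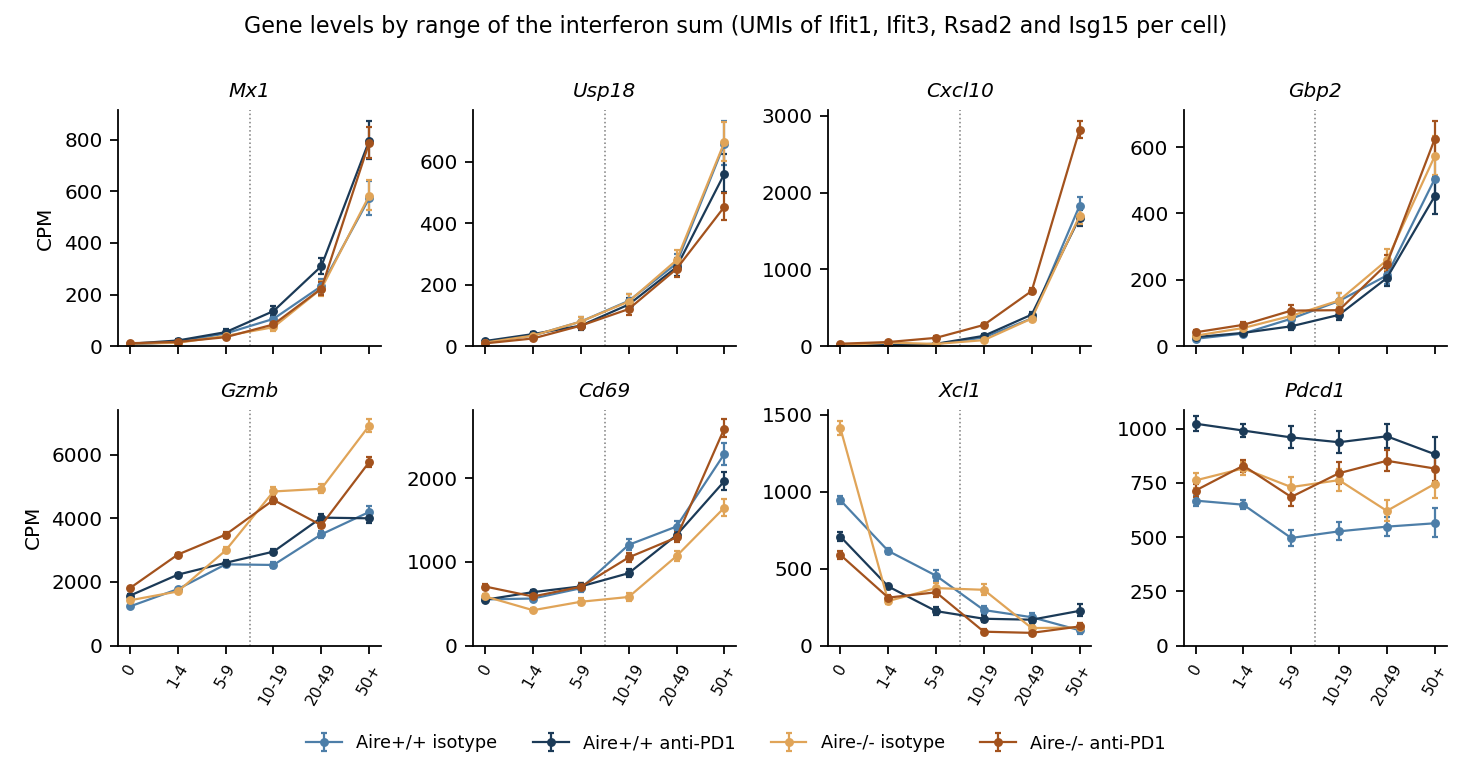
Level in CPM of 8 genes against the range of the interferon sum per cell, by library, with exact 95% Poisson intervals and a dotted line at the threshold of the rule. Mx1, Usp18, Cxcl10 and Gbp2 are highest in cells with 50 or more UMIs in all 4 libraries, and Xcl1 is highest in cells with 0.

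The CD45+ libraries of the tumors give the same contrast in cells of another sort. Of the 137 genes higher in members and outside the rule, 103 had enough UMIs there, and 102 were at least 2-fold higher with the 4 libraries pooled, 86 of them in each of the 4. Their median log2 ratio was 1.89, beside -0.06 over all 4597 genes tested, of which 201 (4.37%) were at least 2-fold higher. Usp18 was at 281 CPM in members and 31.3 CPM in reference cells, and Cxcl10 was at 1546 CPM in members and 79.3 CPM in reference cells. Gzmk had a pooled log2 ratio of 1.22, Cd69 of 1.41 and Xcl1 of -1.46. Csf2 had one of -0.26 (-0.57 to 0.05), an interval that holds 0. Of the 12 genes lower in members, 4 had enough UMIs there, 2 of them at least 2-fold lower, with a median log2 ratio of -0.82, and 24 of all genes tested (0.522%) were at least 2-fold lower. Cd83 had a pooled log2 ratio of 1.29, opposite to the CD8+ sort, from log2 ratios of 0.35, 0.28, -0.49 and 2.18 in the single libraries, so the Aire-/- anti-PD1 library set it.

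In spleen CD8+ cells, 121 of the 137 genes were tested, and 96 were at least 2-fold higher with the libraries pooled, 76 of them in each of the 4. Their median log2 ratio was 1.69, beside -0.07 over all 9057 genes tested, of which 189 (2.09%) were at least 2-fold higher and 420 (4.64%) at least 2-fold lower. Of the 12 genes lower in tumor members, 4 were tested in the spleen and 1 was at least 2-fold lower, with a median log2 ratio of -0.08. The higher genes were thus mostly higher in the spleen as well, and 3 of the 4 lower genes tested were not 2-fold lower there. Usp18 was at 291 CPM in members and 12.96 CPM in reference cells. Cxcl10 was at 14.9 CPM in members and 0.379 CPM in reference cells, from 15 and 25 UMIs. Usp18 and Cxcl10 were thus higher in members of the spleen too. Gzmk had only 6 UMIs in spleen members, at 5.95 CPM in members and 18.3 CPM in reference cells (pooled log2 ratio -1.62, -3.07 to -0.49), so its lower level there rests on few UMIs. Cxcl10 reached far fewer CPM in spleen members than in tumor members.

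Promoters of the genes were searched for the interferon-stimulated response element, a sequence through which type I interferon switches genes on. It was written as TTTCNNTTTC on either strand, where N is any base, from 250 bases before to 50 bases after the start of a RefSeq transcript in build GRCm38.p6. Of the 141 genes higher in members, 116 (82.3%) had such a promoter, 5 of them through an older symbol, and 49 of these (42.2%) held the element. Outside the rule, 45 of 112 genes (40.2%) held it, beside 285 of the 7104 genes (4.01%) that were tested and had a promoter. Over all 32851 promoters, 1131 (3.44%) held it. By list, it was held by 18 of 40 type I effector genes and by 9 of 11 GTPase and related genes, so it was not limited to the genes typical of type I interferon.

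The promoters of the 4 genes of the rule and of Cxcl10 show where the elements lie. They are written 5′ to 3′ on the strand of the gene from build GRCm38.p6 with RefSeq transcript starts, and capitals mark each match to TTTCNNTTTC or its reverse complement. The first base of a match lies 104 and 85 bases before the start in Ifit1 (chr19:34640639-34640938, plus strand), 156 and 122 bases before it in Ifit3 (chr19:34583279-34583578, plus strand), 120 bases before it in Rsad2 (chr12:26456403-26456702, minus strand), and 213 bases before it in Cxcl10 (chr5:92348840-92349139, minus strand). Isg15 (chr4:156200769-156201068, minus strand) has overlapping matches 78, 72 and 66 bases before its start. The promoters shown all hold a match. Of other genes higher in members, Ifit3b, Ifih1 and Stat2 hold a match in the same window, whereas Irf7, Oasl1, Oasl2, Cmpk2, Ifit2, Daxx and Gzmk hold none.
Ifit1: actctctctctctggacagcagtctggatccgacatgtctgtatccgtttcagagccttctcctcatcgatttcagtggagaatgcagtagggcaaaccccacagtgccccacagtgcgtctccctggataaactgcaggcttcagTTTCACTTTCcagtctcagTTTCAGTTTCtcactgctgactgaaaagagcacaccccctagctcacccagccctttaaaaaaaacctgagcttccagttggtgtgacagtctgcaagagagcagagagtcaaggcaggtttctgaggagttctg
Ifit3: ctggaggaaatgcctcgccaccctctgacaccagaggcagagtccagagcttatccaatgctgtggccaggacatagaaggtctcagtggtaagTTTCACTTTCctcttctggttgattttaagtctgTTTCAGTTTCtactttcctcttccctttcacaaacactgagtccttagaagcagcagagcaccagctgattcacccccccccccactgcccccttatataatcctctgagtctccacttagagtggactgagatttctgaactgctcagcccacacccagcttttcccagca
Rsad2: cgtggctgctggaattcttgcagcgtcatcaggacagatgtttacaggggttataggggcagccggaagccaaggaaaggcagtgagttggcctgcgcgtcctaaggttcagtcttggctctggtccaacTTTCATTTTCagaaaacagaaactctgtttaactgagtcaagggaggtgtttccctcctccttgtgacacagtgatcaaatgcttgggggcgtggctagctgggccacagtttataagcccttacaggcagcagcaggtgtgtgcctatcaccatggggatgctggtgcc
Isg15: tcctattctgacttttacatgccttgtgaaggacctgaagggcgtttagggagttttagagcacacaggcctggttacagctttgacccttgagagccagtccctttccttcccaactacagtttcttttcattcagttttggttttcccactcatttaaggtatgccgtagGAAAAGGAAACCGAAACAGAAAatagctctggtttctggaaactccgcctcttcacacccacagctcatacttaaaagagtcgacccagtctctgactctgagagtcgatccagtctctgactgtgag
Cxcl10: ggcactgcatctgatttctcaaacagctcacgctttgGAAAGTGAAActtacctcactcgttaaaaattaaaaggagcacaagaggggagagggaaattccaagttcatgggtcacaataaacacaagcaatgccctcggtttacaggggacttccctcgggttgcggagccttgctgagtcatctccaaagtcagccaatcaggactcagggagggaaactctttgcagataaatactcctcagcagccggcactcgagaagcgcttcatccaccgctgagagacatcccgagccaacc

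The next comparisons ask how members differ between conditions, first by the lack of Aire under anti-PD1. Members of each library had to reach the same interferon sum, so the rule limits how far interferon targets can differ between them. Of 5774 genes with at least 100 UMIs over the pair of libraries, 23 (0.398%) were at least 2-fold higher and 18 (0.312%) at least 2-fold lower in Aire-/- than in Aire+/+ members. Of these, 10 and 6 were also past 2-fold the same way in reference cells, and 21 of the 23 and 16 of the 18 had the same sign there. Of 8248 genes with enough UMIs in reference cells, 31 (0.376%) were at least 2-fold higher and 18 (0.218%) at least 2-fold lower. BC002163 was at 73.6 CPM in Aire-/- members and 8.41 CPM in Aire+/+ members (log2 ratio 3.13, 2.56 to 3.76), and reference cells had a log2 ratio of 3.26. It resembles other copies in the genome, so its level is uncertain. Itgae, the integrin chain CD103 of resident T cells, was at 194 CPM in Aire-/- members and 62.6 CPM in Aire+/+ members (log2 ratio 1.63, 1.40 to 1.87), with 1.23 in reference cells. Cxcl10 was at 1087 CPM in Aire-/- members and 526 CPM in Aire+/+ members (log2 ratio 1.05, 0.97 to 1.13), with 2.05 in reference cells. BC002163, Itgae and Cxcl10 were all higher in the Aire-/- library.

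Areg, a growth factor of the EGF family, was at 117 CPM in Aire-/- members and 31.8 CPM in Aire+/+ members (log2 ratio 1.89, 1.57 to 2.21), and Spp1, the secreted protein osteopontin, was at 194 CPM in Aire-/- members and 52.3 CPM in Aire+/+ members (log2 ratio 1.89, 1.65 to 2.15). Both were higher in the Aire-/- library, and reference cells had log2 ratios of 0.21 and -0.11. Areg was found in 40 of 459 Aire-/- and 25 of 361 Aire+/+ members, and Spp1 in 35 and 14 of them, so both values rest on few cells. Single cells held 96 of 421 UMIs of Areg and 125 of 697 of Spp1 in Aire-/- members, and 30 of 102 and 69 of 168 in Aire+/+ members, and without the top cells the ratios were 2.02 and 2.37. Ccr7 was at 246 CPM in Aire-/- members and 661 CPM in Aire+/+ members (log2 ratio -1.42, -1.54 to -1.31), with -0.56 in reference cells, and was lower in the Aire-/- library. Il2 was at 1.39 CPM in Aire-/- members and 51.7 CPM in Aire+/+ members (log2 ratio -5.21, -6.85 to -3.96), but with the cell of most UMIs left out of each library, 3 and 5 UMIs remained. Rnaset2b was at 48.3 CPM in Aire-/- members and 166 CPM in Aire+/+ members (log2 ratio -1.78, -2.04 to -1.53), with -2.16 in reference cells, and has a near-identical copy, so its level is uncertain.

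The 16 GTPase and related genes tested had a median log2 ratio of 0.44, all 16 above 0 and 1 at least 2-fold higher, and the same genes had a median of 0.47 in reference cells. The 45 effector genes of the type I response had a median of 0.10, beside 0.05 in reference cells and 0.00 over all genes tested in members. Of these 5774 genes, 2843 were above 0. The genes typical of interferon gamma were thus higher in the Aire-/- anti-PD1 library by less than 2-fold for 15 of the 16, with a like median in members and in cells below the threshold. Naive and stem-like genes had a median of -0.45 in members and 0.20 in reference cells.

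The lack of Aire under isotype shares no library with the anti-PD1 comparison. Of 5285 genes, 17 (0.322%) were at least 2-fold higher and 18 (0.341%) at least 2-fold lower in Aire-/- members, and 5 and 6 of them were past 2-fold the same way in reference cells, and 12 of the 17 and 16 of the 18 had the same sign there. Of 8257 genes with enough UMIs in reference cells, 21 (0.254%) were at least 2-fold higher and 25 (0.303%) at least 2-fold lower. BC002163 was again higher, at 103 CPM in Aire-/- members and 8.72 CPM in Aire+/+ members (log2 ratio 3.56, 2.97 to 4.21). Areg was at 119 CPM in Aire-/- members and 29.7 CPM in Aire+/+ members (log2 ratio 2.01, 1.66 to 2.37) and Spp1 at 147 CPM in Aire-/- members and 39.4 CPM in Aire+/+ members (log2 ratio 1.90, 1.59 to 2.21). Serpinb9, which shields killer cells from their own granzyme B, was at 339.7 CPM in Aire-/- members and 134 CPM in Aire+/+ members (log2 ratio 1.34, 1.17 to 1.51). All 4 genes were higher in the Aire-/- library, and reference cells had log2 ratios of 3.72 for BC002163, 1.15 for Areg, 0.39 for Spp1 and 0.75 for Serpinb9. Areg was found in 24 of 331 Aire-/- and 9 of 313 Aire+/+ members, and Spp1 in 29 and 16 of them, again few cells. Single cells held 94 of 347 UMIs of Areg and 81 of 427 of Spp1 in Aire-/- members, and 59 of 85 and 66 of 113 in Aire+/+ members, and without the top cells the ratios were 3.26 and 2.86. Myc, a driver of growth, was at 29.2 CPM in Aire-/- members and 139 CPM in Aire+/+ members (log2 ratio -2.24, -2.60 to -1.90), with -0.67 in reference cells, and was lower in the Aire-/- library.

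Single cells decided other values of this comparison. Fscn1 was at 38.2 CPM in Aire-/- members and 0.349 CPM in Aire+/+ members (log2 ratio 6.77, 4.27 to 12.09), from the barcode that also held Ccr7 and class II transcripts, and without the top cell of each library no UMI of it remained. Marcksl1, an actin-binding protein, had 76 of its 122 UMIs in the same barcode, and its log2 ratio was 2.10 with it and 0.80 without. The log2 ratios of H2-Aa, H2-Eb1 and H2-Ab1 were -2.31, -2.19 and -2.06. Without the top cells those of H2-Eb1 and H2-Ab1 were -0.02 and 0.85, and H2-Aa had 3 UMIs left in Aire+/+ members. The GTPase list had a median log2 ratio of 0.18 with 12 of 16 genes above 0, beside 0.30 in reference cells. The type I effectors had one of 0.12, with 34 of 45 above 0, beside 0.13 in reference cells. Over all 5285 genes tested in members the median was -0.01, and 2574 were above 0.

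Anti-PD1 over isotype in Aire+/+ mice asks what the antibody does where Aire is present. Both comparisons by antibody use the libraries of the comparisons by genotype, so their values are not independent of those. Of 5482 genes, 19 (0.347%) were at least 2-fold higher and 13 (0.237%) at least 2-fold lower under anti-PD1, and 2 and 3 of them were past 2-fold the same way in reference cells, and 18 of the 19 and 12 of the 13 had the same sign there. With the cell of most UMIs of each gene left out, 17 of the 19 and 8 of the 13 stayed past 2-fold. Other genes passed it then, and 37 did so in all. Of 8477 genes with enough UMIs in reference cells, 9 (0.106%) were at least 2-fold higher and 22 (0.26%) at least 2-fold lower. Dusp10, a phosphatase of stress kinases, was at 110.2 CPM in anti-PD1 members and 39.8 CPM in isotype members (log2 ratio 1.47, 1.16 to 1.79), with 0.76 in reference cells. Ccr7 was at 661 CPM in anti-PD1 members and 283 CPM in isotype members (log2 ratio 1.22, 1.11 to 1.34), with 0.05 in reference cells. Serpinb9 was at 292 CPM in anti-PD1 members and 134 CPM in isotype members (log2 ratio 1.12, 0.95 to 1.30), with 0.93 in reference cells. All 3 genes were higher under anti-PD1, Ccr7 in members far more than in reference cells. Il2 was at 51.7 CPM in anti-PD1 members and 0.698 CPM in isotype members (log2 ratio 6.21, 4.34 to 9.27), and without the cell of most UMIs in each library 5 and 1 UMIs remained.

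Myc was at 40.5 CPM in anti-PD1 members and 139 CPM in isotype members (log2 ratio -1.77, -2.07 to -1.49), with -0.68 in reference cells, and was lower under anti-PD1. Klra7, a receptor for MHC class I of the Ly49 family, was at 3.43 CPM in anti-PD1 members and 36.6 CPM in isotype members (log2 ratio -3.42, -4.46 to -2.52), with 10 of 11 UMIs under anti-PD1 and 35 of 105 UMIs under isotype in 1 cell each. The log2 ratios of H2-Aa, H2-Eb1 and H2-Ab1 were -2.60, -2.49 and -2.16, and those of H2-Eb1 and H2-Ab1 were 1.06 and 0.61 without the top cells. Inhibitory receptors had a median log2 ratio of 0.50 with 9 of 9 tested genes above 0, and reference cells had a median of 0.42. Over all 5482 genes tested in members the median was 0.04, and 3151 were above 0. The GTPase list had a median of -0.11, with 5 of 16 above 0, beside 0.06 in reference cells. The type I effectors had one of 0.09, with 36 of 45 above 0, beside 0.16 in reference cells. Members of both libraries were chosen by interferon genes, so these medians do not show whether the antibody changed the response. The naive and stem-like list had a median of -0.35 with 2 of 9 genes above 0, beside -0.37 in reference cells.

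Anti-PD1 over isotype in Aire-/- mice asks the same where Aire is lacking. Of 5588 genes, 14 (0.251%) were at least 2-fold higher and 12 (0.215%) at least 2-fold lower under anti-PD1, and 1 and 0 of them were past 2-fold the same way in reference cells, and 14 of the 14 and 9 of the 12 had the same sign there. Of 7983 genes with enough UMIs in reference cells, 6 (0.0752%) were at least 2-fold higher and 2 (0.0251%) at least 2-fold lower. Ubb, a ubiquitin gene, was at 272 CPM in anti-PD1 members and 86.996 CPM in isotype members (log2 ratio 1.64, 1.44 to 1.85), with 1.70 in reference cells. Itgae was at 194 CPM in anti-PD1 members and 80.1 CPM in isotype members (log2 ratio 1.28, 1.06 to 1.497), and Zfp36, which destabilises cytokine transcripts, was at 632 CPM in anti-PD1 members and 295 CPM in isotype members (log2 ratio 1.10, 0.99 to 1.22). All 3 genes were higher under anti-PD1, and reference cells had log2 ratios of 0.81 for Itgae and 0.58 for Zfp36. Xcl1 was at 95.9 CPM in anti-PD1 members and 216 CPM in isotype members (log2 ratio -1.17, -1.37 to -0.98), with a ratio of -0.997 without the top cells. Ccl3, a chemokine of activated T cells, was at 226 CPM in anti-PD1 members and 692 CPM in isotype members (log2 ratio -1.62, -1.74 to -1.499). Of its 2013 UMIs under isotype, 644 lay in 1 cell, and its ratio was -1.72 without the top cells. Xcl1 and Ccl3 were lower under anti-PD1 in members, whereas reference cells had log2 ratios of -0.70 for Xcl1 and 0.34 for Ccl3, so Ccl3 moved the other way there. Marcksl1 had a log2 ratio of -1.43, and of -0.10 without the top cells. Fscn1 had one of -5.10, with 111 of 111 UMIs under isotype in 1 cell.

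The naive and stem-like list had a median log2 ratio of -0.69 with 0 of 10 genes above 0, beside -0.26 in reference cells. Inhibitory receptors had a median of 0.32, beside 0.09 in reference cells. The GTPase list had a median of 0.16 with 16 of 16 above 0, beside 0.19 in reference cells. The type I effectors had one of 0.08, with 33 of 45 above 0, beside 0.06 in reference cells. Over all 5588 genes tested in members the median was 0.05, and 3346 were above 0. Naive and stem-like genes thus had a median below 0 under anti-PD1 in members and reference cells of both genotypes. The rule limits differences in the type I effectors of members, so their medians do not show whether the antibody changed that response.

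**Figure D4:**
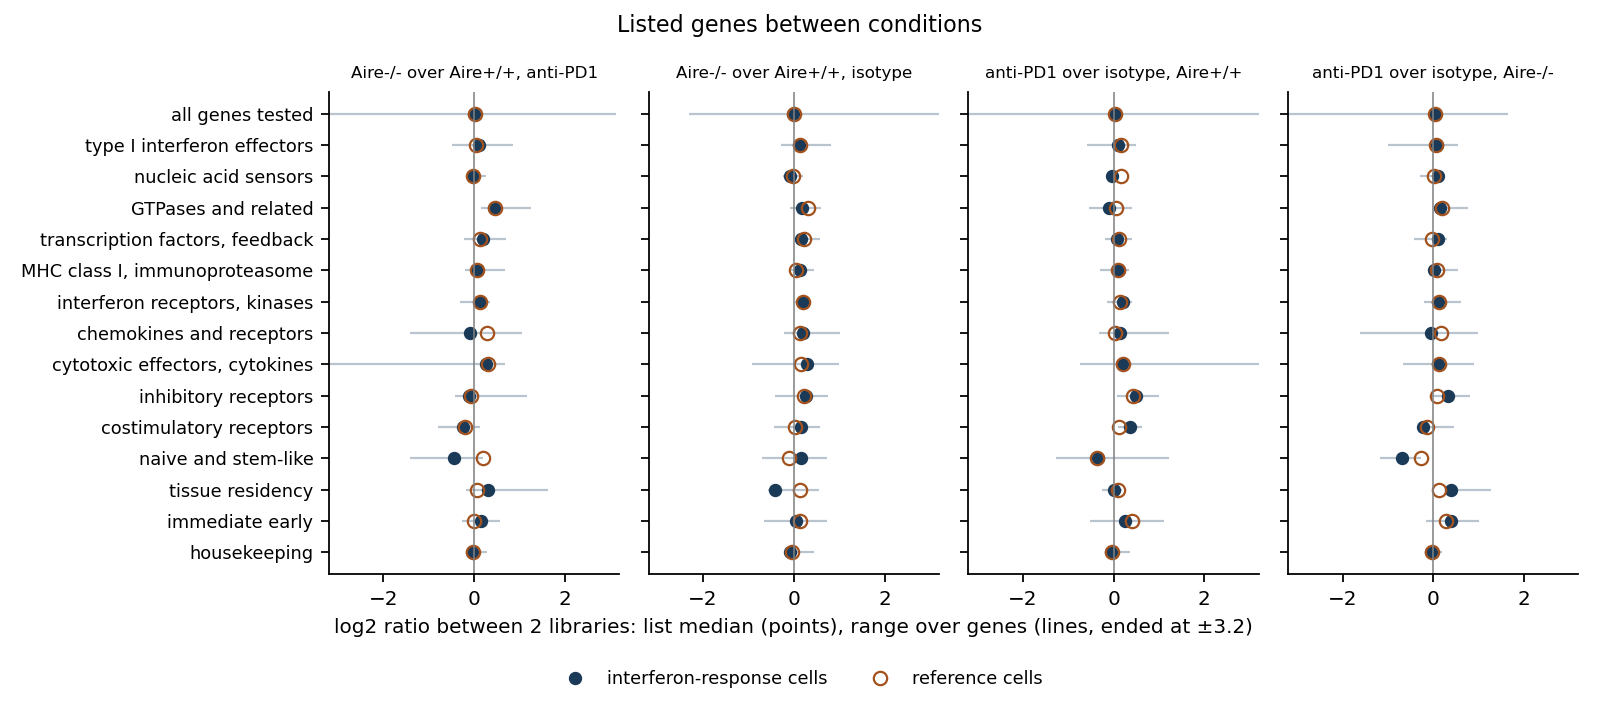
Filled circles give the median log2 ratio of each gene list in members and open circles that in reference cells for the 4 comparisons of conditions, with lines over the range of genes in members that end at the limits of the axis. The GTPase list stands at 0.44 in the comparison of Aire-/- with Aire+/+ under anti-PD1, and the naive and stem-like list at -0.69 in that of anti-PD1 with isotype in Aire-/- mice.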

How the data were processed

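The authors deposited UMI counts per gene and barcode for each library, as whole numbers without normalization. Rows that share a symbol were summed, which left 24495 symbols from 25127 rows. Cells were taken by raw UMIs, and no cell was removed by quality or as a mixed droplet. No member had fewer than 200 genes or over 20% mitochondrial UMIs. UMIs were summed over a group of cells and divided by all UMIs of those cells. A side with 0 UMIs was given a floor of 3 counts. Ratios have conditional exact intervals, shares Clopper-Pearson intervals and levels exact Poisson intervals. Members were compared with reference cells for genes with at least 200 UMIs, and conditions for genes with at least 100 UMIs over a pair. The members and the gene lists were chosen with earlier results of these data known. The named genes are those of the rule and the lists, the 15 highest and 15 lowest genes on no list between members and reference cells by the library with the smallest difference, and the 10 highest and 10 lowest of each comparison of conditions. Python 3.11.15, numpy 2.4.6, scipy 1.17.1, pandas 2.3.3 and matplotlib 3.10.9 were used. The code was tested on simulated data and found all genes planted at 3-, 4- and 8-fold. The planted genes were well above the UMI limits given here, and counts were drawn without variation between cells. Recovery of genes near those limits, or with most UMIs in few cells, was not tested.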

Additional observations from a re-analysis of the deposited data

Results flagged for a closer look

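Penk, which encodes the opioid precursor proenkephalin, moved in opposite directions with the lack of Aire under the 2 antibodies. In members its log2 ratio of Aire-/- over Aire+/+ was -2.72 under anti-PD1 and 1.15 under isotype. Its level in members was 32.4, 46.1, 71.9 and 6.97 CPM, with both Aire+/+ libraries first and isotype before anti-PD1. The difference between these ratios was not tested. Few cells carried the gene, 7, 14, 11 and 9 members in the same order, and 1 cell of each library held 52 of 93, 60 of 148, 129 of 209 and 11 of 25 UMIs. With the top cell of each library left out, the log2 ratios were -2.81 under anti-PD1 and 0.94 under isotype. In reference cells they were -0.36 and -0.76, so the opposite directions were not found there.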

How the results depend on the processing

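The 4 ratios of member shares between conditions kept their direction under 40 of 44 alternatives. With the CD45+ libraries thinned to 5000 UMIs, both Aire-/- over Aire+/+ ratios turned, from 1.17 to 0.835 under anti-PD1 and from 1.41 to 0.948 under isotype. The other exceptions were anti-PD1 over isotype in Aire-/- mice, which was 1.03 and became 0.99 with an interferon threshold of 5 and 0.998 with all cells with CD8 and Cd3 UMIs as the denominator and without the granzyme and cell-cycle criteria. The cause was not tested. Without cells above the 98th percentile of UMIs of their library or with 3 or more UMIs of macrophage, B-cell or natural killer genes, taken as mixed droplets, the ratios reported as 1.17, 1.41, 1.24 and 1.03 were 1.17, 1.42, 1.24 and 1.02, and the count of genes higher in members in all 4 libraries was again 141. The interval of the ratio at 1.03 holds 1 in the reported setting as well.

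The count of genes at least 2-fold higher in members in all 4 libraries ran from 110 to 169 over its alternatives. The lowest, 110, came from the CD45+ libraries, and 90 of those genes were among the 141. With 1 library not used the count can only stay or rise, so those 4 settings are not counted below.

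Counts of genes at least 2-fold apart between conditions were 41 for Aire-/- over Aire+/+ under anti-PD1, 35 under isotype, 32 for anti-PD1 over isotype in Aire+/+ and 26 in Aire-/- mice. With a floor of 50 UMIs, which tests more genes of low count, they were 88, 83, 78 and 70. With cells thinned to 5000 UMIs they were 18, 21 and 13 for the comparisons at 41, 35 and 26, and with members of at least 20 UMIs of the 4 interferon genes the count at 35 was 22. Fewer UMIs or fewer cells enter these settings. Over the gene counts of this and the paragraph before, 20 of 28 alternatives stayed within 1.5 times, and the other 8 are the values just given.

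Thinning together with a threshold of 5, thinning of the CD45+ libraries, leaving out each library and leaving out the top cell of each gene were chosen after seeing the data. No paired analysis was possible because the labels tie the libraries by condition only, with 1 library each. The tumor CD45+ libraries had 113 to 538 cells meeting the other criteria, beside 1127 to 1514 in the CD8+ sort.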
